A study of Homo sapiens with 4 samples.

Results

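The 10 genes described here encode proteins of cell adhesion and cell junctions, most but not all of them typical of epithelial cells. They are the cadherins CDH1, CDH2 and CDH11, the tight junction membrane proteins CLDN1, CLDN4, CLDN7, OCLN and F11R, the tight junction scaffold TJP1, and the epithelial adhesion molecule EPCAM. They were taken by gene name, with earlier results of these data known, and all 10 have a row among the 20329 genes analysed. Levels are FPKM, fragments scaled by the length of the gene model and the depth of the library, so levels of different genes can be compared per length. The RNA came from MDA-MB-231 BM1 (1833) and MDA-MB-231 LM2 (4175), derivatives of a triple-negative human breast cancer line that the labels assign to metastases in bone and in lung. All cells stably expressed an shRNA brought in by a lentivirus, a non-specific one in the controls and one against hnRNPM in the knockdowns, and each combination of line and shRNA gave 1 library of polyadenylated RNA. The number of shRNAs or clones behind each culture was not given in the sources used here. Values for a line are given control first.

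Cadherins are calcium-dependent receptors that bind cadherins of the neighbouring cell and are anchored to actin through catenins. Claudins and occludin seal the space between cells at the tight junction, and TJP1 (ZO-1) links them to the cytoskeleton. In the epithelial-mesenchymal transition, carcinoma cells are known to lose E-cadherin and claudins and often to gain N-cadherin or cadherin 11. MDA-MB-231 is a standard model of the mesenchymal-like end of that range. hnRNPM is an RNA-binding protein known as a splicing regulator, and the title of the series places its action beside ESRP1 in that transition. The table holds gene levels, so isoforms were not analysed here.

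Promoters are shown for 4 genes whose levels moved differently: CLDN1 and CDH2, higher in both knockdowns, CLDN7, lower in both, and CLDN4, which moved in opposite directions. RefSeq sequences for GRCh38.p14, from 250 bases before to 50 bases after the annotated start, matched 6 of the 10 genes by symbol (CDH2, OCLN, CLDN1, CLDN4, CLDN7 and TJP1). CDH1, CDH11, EPCAM and F11R had no entry there. Capitals mark the E-box CAGGTG, or CACCTG where it lies on the other strand, the core recognised by repressors of the ZEB and SNAI families. The windows lie on the minus strand at chr17:7262429-7262728 (CLDN7), chr3:190322397-190322696 (CLDN1) and chr18:28177081-28177380 (CDH2), and on the plus strand at chr7:73830746-73831045 (CLDN4).
CLDN7: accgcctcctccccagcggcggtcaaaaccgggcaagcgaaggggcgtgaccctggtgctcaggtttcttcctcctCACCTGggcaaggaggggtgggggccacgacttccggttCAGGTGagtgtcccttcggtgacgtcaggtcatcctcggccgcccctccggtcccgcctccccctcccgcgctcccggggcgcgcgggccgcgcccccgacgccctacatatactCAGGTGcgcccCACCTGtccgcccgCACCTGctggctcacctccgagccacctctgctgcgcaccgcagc
CLDN1: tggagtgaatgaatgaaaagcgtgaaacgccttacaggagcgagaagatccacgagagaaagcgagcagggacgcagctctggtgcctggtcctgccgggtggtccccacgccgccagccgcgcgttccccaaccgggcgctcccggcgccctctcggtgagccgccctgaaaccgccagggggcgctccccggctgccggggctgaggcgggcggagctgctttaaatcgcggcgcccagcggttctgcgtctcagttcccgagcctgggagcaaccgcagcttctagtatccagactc
CLDN4: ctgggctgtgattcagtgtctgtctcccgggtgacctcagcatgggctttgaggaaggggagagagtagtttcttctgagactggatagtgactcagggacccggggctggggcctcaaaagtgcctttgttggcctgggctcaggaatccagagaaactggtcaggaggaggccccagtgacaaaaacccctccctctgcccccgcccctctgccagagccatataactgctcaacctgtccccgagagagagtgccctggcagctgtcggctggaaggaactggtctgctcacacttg
CDH2: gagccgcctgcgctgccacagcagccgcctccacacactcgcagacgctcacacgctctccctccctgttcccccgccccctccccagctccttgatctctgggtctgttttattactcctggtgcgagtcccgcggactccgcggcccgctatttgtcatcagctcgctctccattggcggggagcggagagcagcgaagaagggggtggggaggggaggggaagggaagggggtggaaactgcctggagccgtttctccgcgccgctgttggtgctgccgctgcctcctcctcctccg
The CLDN7 window held 5 E-boxes, 4 before the start and 1 after it. Of 35116 RefSeq windows of the same length, 20.6% held at least 1 E-box and 0.168% held 4 or more. The CLDN7 window was 71.7% G or C, against a median of 58.7% over all windows. Windows of like composition were not counted separately. The windows of CLDN1, CLDN4 and CDH2 shown here held none, nor did the other annotated window of CDH2 or of CLDN7. OCLN held 1 and 2 in its 2 windows, which overlap, and TJP1 held 1 in 1 of its 4 windows. GC boxes (GGGCGG or CCGCCC), present in 45.0% of all windows, numbered 2 each in the windows of CLDN7 and CLDN1 shown and 1 each in those of CLDN4 and CDH2. These are matches of letters in a window, and binding was not measured.

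The targeted gene checked the labels. HNRNPM stood at 171 FPKM in the BM1 control and 28.4 in the BM1 knockdown, and at 132 and 20.3 in the LM2 libraries, which left 16.6% and 15.4% of the control level. Its average change was -2.59 ± 0.25 (log2(FPKM + 1), standard error, limma, adjusted p 0.00318). Markers matched a mesenchymal-like tumour line that keeps some epithelial genes. VIM was between 1160 and 2354 FPKM, CD44 between 155 and 223, and the epithelial keratin KRT8 between 398 and 1181. Of the receptors that define the triple-negative class, ERBB2 was between 13.5 and 21.9 FPKM, and ESR1 and PGR were not analysed here. Sums of FPKM per library were 434567 to 455114, and mitochondrial genes took 8.80% and 9.31% of them in the controls and 11.8% and 12.8% in the knockdowns. Whether that share has a part in the changes below was not tested. From the steps between the lowest values, 1 fragment was worth about 0.0240 to 0.0437 FPKM in a transcript of 1 kilobase, and the fragment numbers given below follow from it.

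Knockdown of hnRNPM was accompanied by higher E-cadherin, N-cadherin and claudin 1 RNA in both lines. CDH1, CDH2 and CLDN1 were called higher over both lines, none of the 10 genes was called lower, and the remaining 7 did not pass the test. For the background, calls were made for 2.71% of the 13928 genes tested in the upward direction and for 2.76% in the downward direction. The test was a limma fit to log2(FPKM + 1) with terms for cell line and treatment, a two-sided test, Benjamini-Hochberg adjustment over all genes tested and a threshold of 0.05. The fit has 1 residual degree of freedom, so its errors are largely borrowed from the other genes. The median average change of the 10 genes was 0.23, against -0.01 over all genes tested. Genes entered the test at a mean of at least 1 FPKM. All 3 called genes passed that filter only through their knockdown libraries: their control means were 0.329 FPKM for CDH1, 0.103 for CDH2 and 0.887 for CLDN1. Being tested at all thus depended on the group where they were high, and their count is a description. The call of all 3 genes was lost when the line term or the filter was left out, under quantile normalization, after rescaling without mitochondrial genes and in each fit without 1 library.

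CDH1 encodes E-cadherin, the adhesion receptor of epithelial adherens junctions (ENSG00000039068.18, chromosome 16, 68771128 to 68869451, plus strand, GRCh37). BM1 cells had 0.489 FPKM with the control shRNA and 4.08 with the hnRNPM shRNA, and LM2 cells had 0.170 and 2.30. Both knockdown libraries lay above both controls. The ratio of knockdown to control was 8.34 in BM1 and 13.5 in LM2, and on the log2(FPKM + 1) scale, which understates changes of low genes, the average change was 1.63 ± 0.25 (limma, adjusted p 0.0144). The control values rest on about 75 and 35 fragments and the knockdown values on about 456 and 307. CDH1 was tested only because its knockdown libraries lifted it past the filter. Even after the rise CDH1 remained a weakly expressed gene, at percentiles 29.5 and 18.3 of the levels of all genes tested in the 2 knockdown libraries.

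CDH2 encodes N-cadherin, the cadherin of neurons and many mesenchymal cells (ENSG00000170558.8, chromosome 18, 25530930 to 25757410, minus strand). Levels of 0.111 FPKM in control and 1.62 in knockdown cells of BM1 stood beside 0.0945 and 2.2 in those of LM2. The controls were close to each other and the knockdowns 14.5 and 23.3 times as high in BM1 and LM2. The average change was 1.39 ± 0.26 (log2(FPKM + 1), limma, adjusted p 0.0226). With a mean of 1.01 FPKM over the 4 libraries, CDH2 only just passed the filter of 1, and only through its knockdown libraries. The controls rest on about 15 and 17 fragments, so these ratios are imprecise, while the knockdowns rest on about 160 and 261. E-cadherin and N-cadherin RNA were thus higher in the same 2 libraries.

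CDH11 encodes cadherin 11, known from osteoblasts and other mesenchymal cells (ENSG00000140937.13, chromosome 16, 64977656 to 65160015, minus strand). It stood at 14.5 FPKM in the BM1 control and 10.6 in the BM1 knockdown, and at 1.24 and 1.42 in the corresponding LM2 libraries. Both BM1 libraries lay far above both LM2 libraries, whatever the treatment. The average knockdown change of -0.15 ± 0.27 did not pass the test (limma, adjusted p 0.759). RP11-229O3.1, a gene below 0.1 FPKM on the same strand, lies inside it.

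Among CDH1, CDH2 and CDH11 the shares differed between libraries. These shares leave out other cadherins, of which CDH4 alone was at 18.1 and 4.24 FPKM in BM1 and 21.0 and 10.7 in LM2. The 3 genes summed to 15.1 FPKM in the BM1 control, of which CDH11 made up 96.0%. In the BM1 knockdown the sum was 16.3, with 65.0% from CDH11, 25.0% from CDH1 and 9.93% from CDH2. The LM2 control had a sum of only 1.5, with 82.4% from CDH11. In the LM2 knockdown the sum was 5.91, and CDH1 (38.8%) and CDH2 (37.2%) each exceeded CDH11 (23.9%). The ratio of CDH1 to CDH2 was 4.39 and 2.52 in BM1 and 1.80 and 1.04 in LM2, control first. In bulk RNA a different number of expressing cells and a different amount of RNA per cell cannot be told apart.

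**Figure D1:**
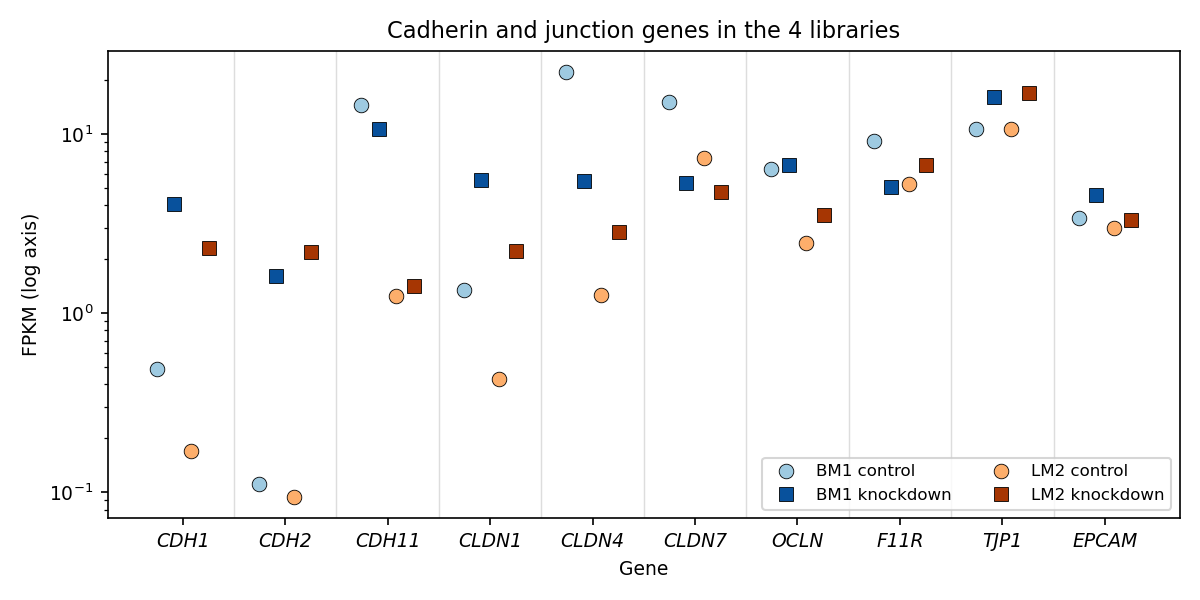
FPKM of each gene (log axis) in the 4 libraries, 1 point per library, circles for controls and squares for knockdowns. Both squares lie above both circles for CDH1, CDH2, CLDN1 and TJP1, and below both for CLDN7. The share of all genes tested that separate in this way was not counted. CDH11 is split by line, with 14.5 and 10.6 FPKM in BM1 against 1.24 and 1.42 in LM2.

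The 3 claudins, which set the permeability of tight junctions, went 3 ways. CLDN1 encodes claudin 1, a barrier-forming claudin (ENSG00000163347.5, chromosome 3, 190023490 to 190040264, minus strand). Control and knockdown cells measured 1.34 and 5.52 FPKM in BM1, against 0.430 and 2.22 in LM2. The knockdown libraries were 4.11 and 5.17 times as high as their controls and did not overlap with them. Its average change was 1.32 ± 0.26 (log2(FPKM + 1), limma, adjusted p 0.0263), in a test that CLDN1 entered only through its knockdown libraries. With a pseudocount of 0.1 in place of 1 the change was 2.05 and the adjusted p 0.0672, so this call also depended on the scale.

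CLDN7 encodes claudin 7, an epithelial claudin known to bind EPCAM (ENSG00000181885.18, chromosome 17, 7163222 to 7167302, minus strand). Its 15.1 FPKM in BM1 control cells compared with 5.31 after knockdown, and its 7.32 in LM2 controls with 4.74. Both controls were above both knockdowns, with 35.2% of the control level left in BM1 and 64.8% in LM2. The average change of -0.94 ± 0.29 did not pass the test (limma, adjusted p 0.0918, unadjusted p 0.00978). CLDN7 shares 38 bases with ELP5 on the opposite strand, whose own levels were 48.1 and 45.7 FPKM in the controls and 26.1 and 27.7 in the knockdowns. The libraries were stranded per the labels, but the strand setting of the counting was not given in the sources used here, and the part of this overlap was not tested.

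CLDN4 encodes claudin 4, typical of simple and glandular epithelia (ENSG00000189143.9, chromosome 7, 73213872 to 73247023, plus strand). With 22.2 FPKM it was the most abundant of the 10 genes in the BM1 control, and it was at 5.48 in the BM1 knockdown. In LM2 it was at 1.26 in the control and 2.85 in the knockdown. The knockdown level was thus 24.7% of control in BM1 and 225% of control in LM2. On the log2(FPKM + 1) scale the changes were -1.84 and 0.77, a gap of -2.60 between the lines. A gap of at least that size was found in 0.424% of the genes tested. The average change of -0.54 ± 0.51 (adjusted p 0.551) describes neither line, and the difference between lines could not be tested with 1 library per arm.

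Shares among CLDN1, CLDN4 and CLDN7 differed between libraries as well. They leave out CLDN12, at 11.2 and 26.8 FPKM in BM1 and 15.3 and 28.8 in LM2. The 3 genes summed to 38.6 FPKM in the BM1 control and 16.3 in the BM1 knockdown, and to 9.01 and 9.81 in LM2. CLDN4 made up 57.4% of that sum in the BM1 control and CLDN7 39.1%, whereas in the BM1 knockdown CLDN1, CLDN4 and CLDN7 held 33.8%, 33.6% and 32.6%. In LM2 the share of CLDN7 was 81.2% in the control and 48.3% in the knockdown, and that of CLDN1 was 4.77% and 22.6%.

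The other tight junction genes showed smaller differences. TJP1 encodes ZO-1, which ties claudins and occludin to actin (ENSG00000104067.16, chromosome 15, 29991571 to 30261068, minus strand). BM1 had 10.7 and 16.0 FPKM, LM2 10.6 and 17. The controls were nearly equal, as were the knockdowns, and the knockdowns were 1.5 and 1.60 times as high. Its average change of 0.58 ± 0.25 had an unadjusted p of 0.0458 and did not pass the test (limma, adjusted p 0.192). The pseudogene HMGN2P5 lies inside TJP1 on the opposite strand, at 38.9 and 30.8 FPKM in the controls and 15.0 and 14.5 in the knockdowns.

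OCLN encodes occludin (ENSG00000197822.10, chromosome 5, 68788119 to 68853931, plus strand). Occludin RNA measured 6.37 and 6.75 FPKM for BM1, 2.46 and 3.54 for LM2, so the lines did not overlap. Its average change was 0.23 ± 0.26 (limma, adjusted p 0.617). The BM1 change of 0.07 turned to -0.03 under quantile normalization.

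F11R encodes JAM-A, an immunoglobulin-like adhesion protein of tight junctions (ENSG00000158769.17, chromosome 1, 160965001 to 160991138, minus strand). It was at 9.14 FPKM in the BM1 control and 5.04 in the BM1 knockdown, but at 5.27 and 6.75 in LM2. Its changes of -0.75 and 0.31 thus had opposite signs, as for CLDN4, and controls and knockdowns overlapped. The average was -0.22 ± 0.31 (limma, adjusted p 0.700). RP11-544M22.13 overlaps F11R on the same strand, at 0.0139 to 0.247 FPKM, so fragments could be shared between the 2 models.

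EPCAM encodes a homophilic adhesion protein used as a marker of carcinoma cells (ENSG00000119888.10, chromosome 2, 47572297 to 47614740, plus strand). It varied least of the 10 genes, with 3.41 and 4.59 FPKM for BM1 and 3.0 and 3.31 for LM2. The highest library was 1.53 times the lowest, and the average change was 0.23 ± 0.25 (limma, adjusted p 0.622).

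**Figure D2:**
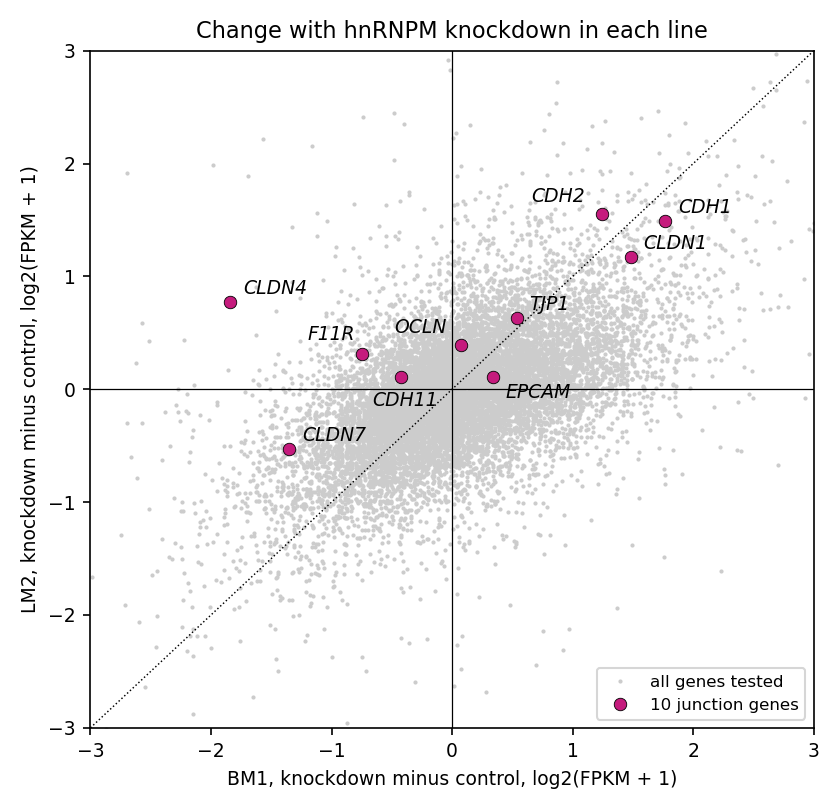
Change with knockdown in BM1 (x axis) and LM2 (y axis), log2(FPKM + 1), for all genes tested (grey) and the 10 junction genes (named points). The dotted line marks equal change, and 50 genes lie beyond the axis limit of 3. CDH1, CDH2 and CLDN1 lie past 1 on both axes, and CLDN4 lies at -1.84 and 0.77.

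Within a line there was 1 library per arm, so genes were counted past a 2-fold difference (1 on the log2(FPKM + 1) scale), with no test. In BM1, 3 of the 10 genes were at least 2-fold higher (CDH1, CDH2 and CLDN1) and 2 at least 2-fold lower (CLDN4 and CLDN7) in the knockdown. Over all genes tested 10.1% were higher and 6.20% lower by that rule. CDH1, CDH2 and CLDN1 passed the filter only through their knockdown libraries, so their counts in both lines are descriptions. In LM2 the same 3 genes were at least 2-fold higher on this scale and none was lower, where 3.83% of all genes were higher and 4.24% lower. The scale understates changes of low genes. CLDN4 was 2.25 times its control in LM2 in plain FPKM, but its change of 0.77 fell short of 1. With a pseudocount of 0.1 that change was 1.11 and passed. The BM1 changes had a median of 0.21 and the LM2 changes one of 0.51, beside 0.00 and -0.04 over all genes. In 7 of the 10 genes the sign was the same in both lines, as it was in 9631 of 13928 genes. The 3 exceptions, CLDN4, F11R and CDH11, were lower in the BM1 knockdown and higher in the LM2 knockdown.

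Averaged over both treatments, CDH11 had the largest difference between the lines among the 10 genes, while between the controls alone CLDN4 differed more (-3.36 against -2.79). Of the 10 genes, CDH11 was called lower in LM2 and none higher, where 2.04% of all genes were called lower and 2.31% higher. The difference was -2.53 ± 0.27 (log2(FPKM + 1), LM2 minus BM1, limma, adjusted p 0.00187). The BM1 level was 11.7 times the LM2 level in the controls and 7.48 times in the knockdowns. The CDH11 call was lost without the filter (adjusted p 0.213), without the treatment term (0.113) and in each fit without 1 library (0.115 to 0.163).

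Most of the other genes also had lower values in LM2, without passing the test. All 10 genes were lower in the LM2 control than in the BM1 control, and 7 were also lower in the LM2 knockdown than in the BM1 knockdown. Of all genes tested, 47.8% were lower in the LM2 control, 54.7% in the LM2 knockdown and 34.5% in both. The count of 10 includes CDH2 and TJP1, whose control differences were only -0.02 and -0.01. CLDN4 differed by -2.05 ± 0.51 (limma, adjusted p 0.0599). Its difference was unequal between treatments, since the BM1 level was 17.6 times the LM2 level in the controls and 1.93 times in the knockdowns. OCLN differed by -0.93 ± 0.26 (limma, adjusted p 0.0819) and CLDN1 by -0.87 ± 0.26 (limma, adjusted p 0.0949). TJP1, at 0.04 ± 0.25, and CDH2, at 0.13 ± 0.26, had averages slightly above 0. The median over the 10 genes was -0.52, beside -0.01 over all genes. By the 2-fold rule on the log2(FPKM + 1) scale, CDH11, OCLN and CLDN4 were lower in the LM2 control, against 5.26% of all genes. CDH11 and CLDN1 were lower by that rule in the LM2 knockdown, against 4.63%. The added 1 shrinks ratios, most of all for low genes. In plain FPKM the BM1 control was also 2.88 (CDH1), 3.13 (CLDN1) and 2.06 (CLDN7) times the LM2 control. The share of all genes by plain ratio was not counted.

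**Figure D3:**
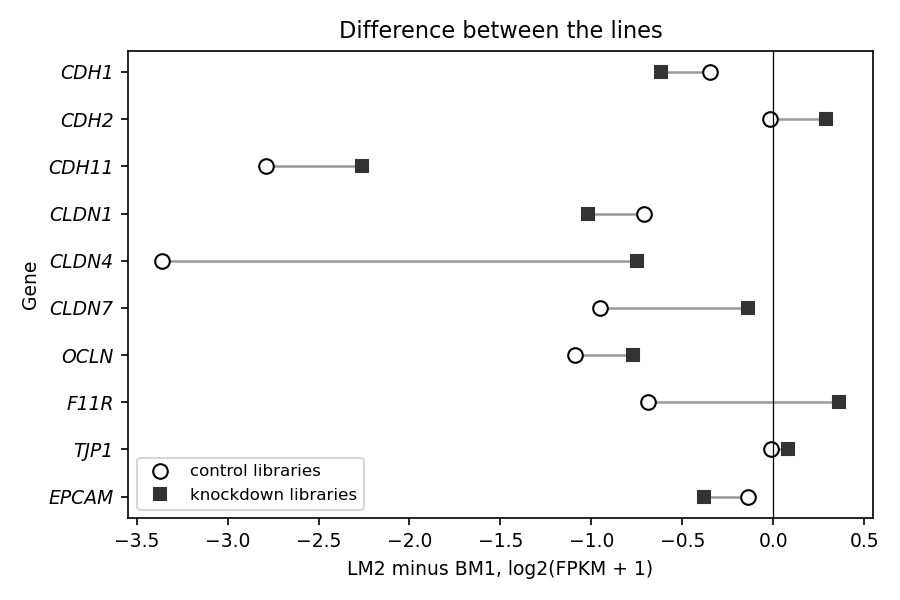
LM2 minus BM1 on the log2(FPKM + 1) scale for each gene, between the control libraries (open circles) and between the knockdown libraries (filled squares). CDH11 stands at -2.79 and -2.26, and CLDN4 moves from -3.36 between controls to -0.75 between knockdowns.

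Per length, the order of the levels also changed. In the BM1 control the order was CLDN4, CLDN7, CDH11, TJP1, F11R, OCLN, EPCAM, CLDN1, CDH1 and CDH2, from 22.2 down to 0.111 FPKM. In the LM2 control TJP1 (10.6), CLDN7 (7.32) and F11R (5.27) led, and CLDN1 (0.430), CDH1 (0.170) and CDH2 (0.0945) were again last. TJP1 was also first in both knockdowns, at 16.0 and 17 FPKM. In the BM1 knockdown CLDN1 (5.52), CLDN4 (5.48) and CLDN7 (5.31) were neighbours in the order. The last place was held by CDH2 in the BM1 knockdown (1.62) and by CDH11 in the LM2 knockdown (1.42). No spread between replicates exists against which neighbours in these orders could be judged.

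Other genes of cell junctions were then counted in 6 lists with 99 names in all, of which 56 were analysed and 41 tested. In the knockdown contrast 6 of the 41 were called higher and 1 lower, with a median average change of 0.36. Over all genes tested 2.71% were called upward and 2.76% downward, and the median was -0.01. The same background applies to the count of each list below. CXADR, ELF3 and the epithelial marker MUC1, called higher with knockdown, passed the filter only through the knockdown libraries, with control means of 0.689, 0.290 and 0.550 FPKM. Likewise GJB2 passed it only through LM2, and CDH18 and MAL2 only through BM1, with means of 0.460, 0.227 and 0.641 FPKM in the other line. Among adherens junction catenins and nectins, 1 of 12 was called, PLEKHA7, which binds p120-catenin at the apical junction. Its RNA rose from 5.47 to 35.5 FPKM (BM1) and from 1.46 to 14.6 (LM2) (2.58 ± 0.25, limma, adjusted p 0.00318). The nectin PVRL3 changed by 0.97 (adjusted p 0.0655), LIMA1, which links catenin to actin, by 0.90 (0.0754) and JUP, which encodes plakoglobin, by 0.86 (0.109).

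Among other tight junction and polarity genes 2 of 11 were called higher. CXADR, the adhesion receptor to which coxsackieviruses and adenoviruses bind, rose from 0.286 to 6.02 FPKM (BM1) and from 1.09 to 5.88 (LM2) (2.08 ± 0.28, limma, adjusted p 0.0102). CXADR entered the test only through its knockdown libraries. CGN, the tight junction plaque protein cingulin, rose from 2.61 to 7.47 and from 0.881 to 6.18 FPKM (adjusted p 0.0201). PARD6B (1.03, adjusted p 0.0640) and CLDN12 (1.03, adjusted p 0.0540) did not pass, and PARD6B and MAGI1 differed most between lines in that list, by -0.81 (adjusted p 0.130) and -0.76 (adjusted p 0.126).

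Desmosomes anchor keratin filaments between cells, and 2 of their 8 tested genes were called higher. PPL (periplakin) rose from 3.0 to 7.38 FPKM for BM1 and 2.53 to 10.3 for LM2 (1.37 ± 0.27, limma, adjusted p 0.0279). PKP2 (plakophilin 2) rose from 16.6 to 37.7 and from 8.99 to 19.7 FPKM (1.09 ± 0.25, adjusted p 0.0433). DSC2 changed by 0.86 (adjusted p 0.0880) and EVPL by -0.57 (adjusted p 0.201).

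Of 4 connexins tested, GJA1 (connexin 43) was called, at 3.35 and 15.4 FPKM in BM1 and 3.0 and 6.52 in LM2 (1.42 ± 0.30, adjusted p 0.0356). GJD3 changed by -0.68 (adjusted p 0.143). GJB2 was called higher in LM2 than in BM1 (1.27, adjusted p 0.0404). Of the 3 EPCAM-related surface genes reported, limma called 0 with knockdown, and 1 had an unadjusted p under 0.05, MAL2 (0.00585). This gene of apical transport was at 3.44 and 46.1 FPKM in BM1 but at 0.333 and 0.949 in LM2 (1.98 ± 0.55, adjusted p 0.0714), and it was called lower in LM2 (-3.17, adjusted p 0.0166). The protease inhibitor genes SPINT1 and SPINT2 changed by 0.56 (adjusted p 0.305) and -0.55 (adjusted p 0.256).

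The list of other cadherins was the one with a call in the downward direction. CDH4 (R-cadherin) fell from 18.1 to 4.24 FPKM for BM1 and 21.0 to 10.7 for LM2 (-1.39 ± 0.30, limma, adjusted p 0.0359). CDH24 changed by -0.79 (adjusted p 0.119) and CDH18 by -0.40 (adjusted p 0.362). CDH18 was called lower in LM2 (-1.89, adjusted p 0.00574). CDH3 (P-cadherin) was below the filter, at 0.0292 and 0.205 FPKM in BM1 and 0.961 and 2.2 in LM2.

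Transcription factors known to act on CDH1 were listed because the gene is classically repressed by ZEB and SNAI proteins and activated by factors such as KLF4. Of 6 tested, 2 were called higher and none lower, against 2.71% and 2.76% of all genes. KLF4 rose from 6.93 to 20.9 FPKM for BM1 and 6.18 to 23.1 for LM2 (1.60 ± 0.26, limma, adjusted p 0.0150). ELF3, an epithelial ETS factor, rose from 0.179 to 1.47 and from 0.401 to 2.64 FPKM (1.22 ± 0.26, adjusted p 0.0338). ELF3 was tested only because its knockdown libraries lifted it past the filter, so the count of 2 is a description. The repressor ZEB1 was at 4.05 and 7.05 FPKM in BM1 and 7.48 and 11.9 in LM2, an average change of 0.64 (adjusted p 0.163). The repressor SNAI2 was at 6.71 and 5.49 FPKM in BM1 and 16.8 and 9.07 in LM2, an average change of -0.54 (adjusted p 0.258). ZEB2 was called higher in LM2 than in BM1 (1.24, adjusted p 0.0342), with a knockdown change of 0.44 (adjusted p 0.324). SNAI1 was below the filter at 0.303 to 1.61 FPKM. Whether any of these factors had a part in the change of CDH1 was not tested.

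**Figure D4:**
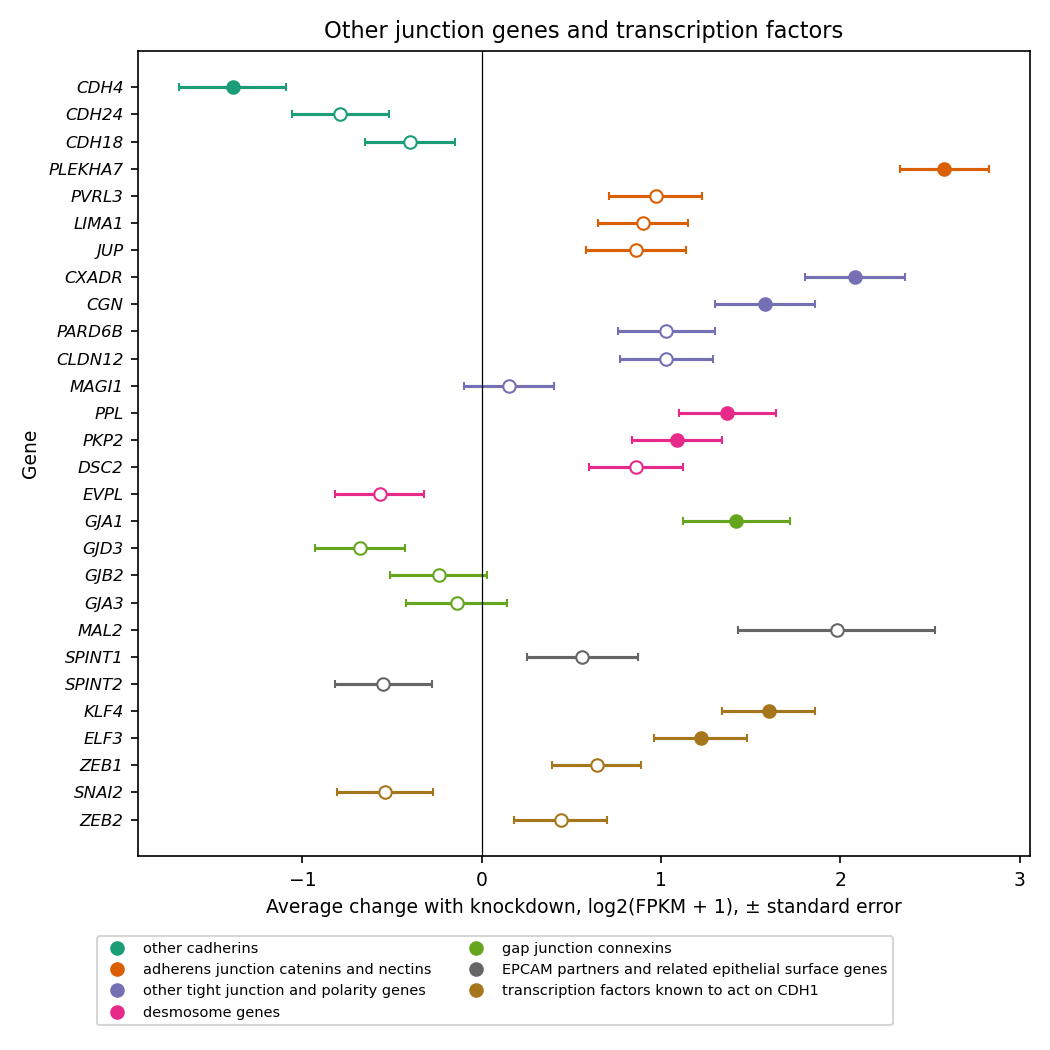
Average change with knockdown ± standard error (log2(FPKM + 1)) for the listed genes with the largest knockdown changes or line differences, coloured by list. Each treatment has n = 2 libraries, 1 of each line, which are not replicates. The errors are largely borrowed from the other genes. Filled points passed the test. PLEKHA7 stands highest at 2.58 and CDH4 lowest at -1.39.

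Several of these named genes overlap other models. ELF3, MAL2, ZEB1, ZEB2, EVPL, GJD3 and PLEKHA7 overlap genes on the opposite strand, and CLDN12, PLEKHA7, PKP2, LIMA1, MAGI1, CDH18 and ZEB1 do so on the same strand. Among the markers KRT7, KRT8, VIM, CD44 and CD68 overlap other models too, KRT8 with KRT18. KRT8, CXADR and PSG5 have near-identical pseudogenes or relatives. The values of all these genes are uncertain.

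Markers of other cell types were read beside these results. Of 5 epithelial markers, KRT7, KRT8 and MUC1 were called higher in the knockdowns, and the 5 summed to 803 and 1678 FPKM in BM1 and 777 and 1743 in LM2. Much of these sums was KRT8, at 398 and 1181 FPKM in BM1 and 485 and 1083 in LM2. MUC1 entered the test only through its knockdown libraries, and KRT18 did not pass the test (0.97, limma, adjusted p 0.0750). The level of KRT19 was 225 and 118 FPKM in BM1 and 20.1 and 24.8 in LM2, an average change of -0.32 (limma, adjusted p 0.581). KRT19 was called lower in LM2 than in BM1 (-2.81, adjusted p 0.00278) and KRT7 higher (1.94, adjusted p 0.0173). None of 5 mesenchymal-like tumour markers was called, and their sum was 4021 and 2309 FPKM in BM1 and 3138 and 3180 in LM2. Fibroblast markers summed to 3.37 and 14.9 FPKM in BM1 and 30.0 and 79.3 in LM2, with COL1A1 called higher in the knockdowns (1.67, adjusted p 0.0170) and in LM2 (a difference of 3.0, adjusted p 0.00109). PDGFRB changed by 1.02 (adjusted p 0.0568), LUM was between 0.0213 and 1.61 FPKM, COL3A1 between 0.0288 and 0.525, and DCN and COL1A2 were not analysed here. The part of other cells in the changes of CDH2, CDH11 and the other genes was not tested. Of the leukocyte markers CD68, also expressed by many tumour cells, fell from 23.5 to 4.46 and from 9.50 to 2.04 FPKM (adjusted p 0.00969), and the 2 endothelial markers analysed stayed below the filter.

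The genes whose levels over the 4 libraries were nearest to those of CDH1, by Euclidean distance of log2(FPKM + 1), were PSG5 (distance 0.325), AC068134.8 (0.422) and HSPB8 (0.426). PSG5 was at 0.649 and 5.02 FPKM for BM1 and 0.0596 and 2.17 for LM2, and HSPB8 at 0.510 and 5.55 and at 0.283 and 2.70. Nearest to CDH2 were ITIH3 (0.405), ELF3 (0.418) and ANGPT1 (0.423). ITIH3 had 0.0912 and 2.35 FPKM for BM1 and 0.156 and 2.61 for LM2. With 4 libraries such nearness describes levels and nothing more.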

How the data were processed

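The authors deposited 1 table of FPKM values with 1 column for each of the 4 libraries. STAR 2.5.3a, Cuffdiff 2.2.1 and GRCh37 are named, with no role, in the submitters' processing notes. The tool behind the FPKM values, its annotation and its strand setting were not given in the sources used here. Gene coordinates are those of the table.

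Of 20369 entries, 40 with 3 repeated gene IDs were left out. The 13928 genes with a mean of at least 1 FPKM were tested with limma 3.58.1 in R 4.3.3 on log2(FPKM + 1), with terms for cell line and treatment and Benjamini-Hochberg adjustment over all of them. The cell line pairs each knockdown with its control, as both are the same line (Pearson r across genes 0.545 between deviations from the treatment means). No group has a second library, so the p-values hold no spread between replicates. Their error comes from how far the knockdown change of a gene differs between the lines, and largely from the other genes. An exact permutation of 2 pairs cannot give a two-sided p below 0.5. The fit was tested on simulated data only with changes larger than those of CDH1, CDH2 and CLDN1 and with equal noise for every gene. That cannot show how it performs at the sizes and spreads found here.

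The value of 1 fragment is the spacing of FPKM times length in 1623 low genes with 1 transcript (GENCODE 29). Of the values used, 23.6% to 44.9% lay within 0.02 of whole fragments, too few for a count test, so fragment numbers are approximate.

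The 10 genes, the lists and the rule for named genes were chosen with earlier results of these data known. The rule names the 10 genes, HNRNPM, in each list up to 4 genes with the largest knockdown change and up to 2 with the largest line difference, and the 3 genes nearest to CDH1 and to CDH2. A listed gene is not reported here and is left out of the list counts. CDH3 and SNAI1 were added after their values were seen. Other pseudocounts, filters, scalings, an intensity trend, an unpaired fit, each library left out and a 1.5-fold rule were tried.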

Additional observations from a re-analysis of the deposited data

Results flagged for a closer look

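CLDN4, F11R and CDH11 moved in opposite directions in the lines, lower in the BM1 knockdown and higher in the LM2 knockdown. The change in BM1 minus the change in LM2, on the log2(FPKM + 1) scale, was -2.60 for CLDN4, -1.05 for F11R and -0.53 for CDH11. Gaps of at least these sizes were found in 0.424%, 9.23% and 35.1% of all genes tested. With 1 library in each arm, these differences were not tested.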

How the results depend on the processing

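Of the 10 genes, 3 were called in the knockdown contrast. The count was 0 without the filter, with quantile normalization, after rescaling without the mitochondrial genes, in the fit with no replicate block (not paired by line) and with any library left out. The lost calls were those of CDH1, CDH2 and CLDN1, whose changes stayed between 1.31 and 1.68 in these settings with all 4 libraries. Over all genes limma then called 0, 94, 16, 0 and 0, against 762, with 3735, 3320, 3127, 1548 and 860 to 1943 at an unadjusted p under 0.05. A pseudocount of 0.1 gave 27 calls over all genes, CDH1 (2.99, adjusted p 0.0495) and CDH2 (3.29, 0.0455) among them. Between lines 1 gene was called, against 0 without the filter, with no replicate block and with any library left out, and 2 with an intensity trend (CLDN4 added, adjusted p 0.0487). The cause was not tested. The rescaling moved the BM1 median of all genes by 0.10. The number changed at least 2-fold in LM2 was 3, and 4 with a pseudocount of 0.1 (CLDN4 added). It was 5 by a 1.5-fold rule, which 3418 of all genes passed.

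Fits that left out 1 library held the lines or treatments in unequal numbers, took a lone library to vary like the other arm and could not keep the pairing. Their knockdown changes ranged from 1.32 to 1.94 for CDH1, 1.25 to 1.54 for CDH2, 0.81 to 1.83 for CLDN1, -1.55 to 1.24 for CDH11, -0.31 to 0.78 for OCLN, -2.21 to 1.14 for CLDN4, -1.42 to -0.47 for CLDN7 and -0.57 to 0.13 for F11R. Differences between lines ranged from -1.37 to 0.40 for CDH1, -0.64 to 0.91 for CDH2, -2.74 to -2.32 for CDH11, -1.60 to -0.13 for CLDN1, -2.97 to -1.14 for CLDN4, -1.22 to 0.13 for CLDN7, -0.28 to 0.35 for TJP1 and -0.54 to 0.21 for F11R. Depth limits CDH1 and CDH2 most, whose controls rest on about 15 to 75 fragments.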
